A study of Mus musculus with 14 samples.

Results

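Satellite cells sorted from old mice were compared with satellite cells sorted from young mice. The comparison used the 6 arrays that the labels call Old (3 arrays) and Young (3 arrays), of 14 arrays in the series. The Young samples came from C57BL/6 mice of 2, 2 and 3 months and the Old samples from C57BL/6 mice of 22, 23 and 24 months, all labelled male. The labels give no transgene, deleted allele or treatment for either group, and the sources used here do not say whether muscles of several mice were pooled. The remaining 8 arrays, 2 of Geriatric C57BL/6 mice and 3 each of the SAMR1 and SAMP8 strains, served to estimate the spread of each gene and to set the levels beside.

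Satellite cells are the stem cells of skeletal muscle and lie between a muscle fibre and its basal lamina. In uninjured muscle they rest in quiescence, which depends on the transcription factor Pax7, on Notch signalling and on contact with the niche. After injury they divide, express Myod1 and either form new fibre or return to quiescence, and this capacity declines in old animals.

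The cells had been sorted by flow cytometry as positive for integrin alpha 7 and CD34 and as negative for CD31, CD45, CD11b and Sca1, and their RNA was amplified as a whole transcriptome before labelling with Cy3 and hybridisation to Agilent single-colour arrays. Each level below is the log2 signal of a probe relative to the 75th percentile of its array, so a level of 0 is the signal at that percentile. A probe counts as above background where the scanner software marked it as well above the local background. Between 79.6% and 83.0% of probes were above background on the Young arrays and 82.9%, 83.6% and 88.8% on Old 2, Old 3 and Old 1. Pairs of arrays within Young or within Old had Pearson correlations of 0.951 to 0.967 across genes, and pairs of a Young and an Old array of 0.918 to 0.956.

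The labels were checked against transcripts that mark sex and cell type. Xist, the RNA that silences an X chromosome in female cells, had levels of 5.86, 5.62 and 5.59 on the Young arrays and 5.08, 5.14 and 5.55 on the Old arrays. The Y-linked genes Ddx3y, Uty and Kdm5d were not above background on any of these 6 arrays. Eif2s3y, a further Y-linked gene, read between −1.85 and −0.86 and was above background on all 6. Xist was thus high in both groups, against the labelled sex, and its difference of −0.43 did not pass the test (limma adjusted p = 0.854). Its mean level was −7.23 in Geriatric, −6.76 in SAMR1 and −4.14 in SAMP8 samples, so levels in those groups are set beside Young and Old across this gap. All 12 satellite cell markers were above background on at least 2 arrays of both groups, and none passed the test for a difference. Pax7 read 3.91, 4.58 and 4.20 on the Young arrays and 3.70, 3.39 and 3.54 on the Old arrays, a difference of −0.69 ± 0.21 (SE, limma adjusted p = 0.128). Cd34, an antigen of the sort, read between 2.46 and 3.18 on all 6 arrays, and Itga7, the other one, differed by −0.63 ± 0.26 (adjusted p = 0.249). Itgam, which encodes the CD11b antigen that was sorted against, nevertheless read between 7.89 and 8.59 on all 6 arrays, and the 16 measured myeloid markers summed, on the linear scale, to 271.2 to 375.8 per Young array and 250.5 to 401.6 per Old array. Most of that sum is the Itgam probe, whose specificity was not tested, and the other 15 summed to 9.85 to 14.2 per Young and 12.6 to 17.7 per Old array. Sums that leave out the brightest marker of a list were added after seeing the data. The 14 endothelial markers summed to 3.34 to 5.75 per Young array and 4.68 to 8.84 per Old array, with Pecam1 between −4.95 and −0.85 in Young and between −1.68 and −0.41 in Old samples. In such sorted pools, fewer cells of a type and less RNA per cell cannot be told apart.

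Old and Young satellite cells differed in 198 genes with gene symbols, of which 140 were higher and 58 lower in Old cells. The largest falls were Plac9 and its neighbour D14Ertd449e on chromosome 14, and the largest rises among genes measured in both groups included Uroc1, Btla, Ccl11, Serpina3n and Zbtb16. These 198 genes are 1.26% of the 15717 symbol genes tested (0.891% higher, 0.369% lower) in limma's fit over all 14 arrays, at an adjusted p under 0.05. Over all 32862 genes tested, which also include intergenic intervals, transcript identifiers and chemosensory receptors, 472 were called (1.44%), 393 higher (1.2%) and 79 lower (0.24%). All 472 lay without overlap between the 3 Young and 3 Old arrays, so this adds no support to a single call. Of 11649 transcript identifiers and other names 183 were higher (1.57%) and 13 lower (0.112%), and of 4488 intergenic intervals 37 were higher (0.824%) and 8 lower (0.178%). The balance depends on the scaling: with arrays scaled to their median, which moves the median change of all genes from 0.06 to −0.15, 102 symbol genes were called higher and 102 lower, and with quantile normalization 117 and 104. The calls also rest on the other 8 arrays, since the 6 arrays alone gave 17 higher and 2 lower symbol genes. Of the 198 calls, 41, 84 and 151 were kept when Old 1, Old 2 or Old 3 was left out, and 60, 92 and 108 when Young 1, Young 2 or Young 3 was. In all, 37 symbol genes were called higher and 5 lower without Old 1, and 51 and 13 without Young 1. Without Old 3, 185 were called higher and 143 lower. The falls numbered 19, 26 and 17 without Young 2, Young 3 and Old 2. In total 35 of the 198 calls were kept without each of the 6 arrays in turn, and this is said below of each such gene described.

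The arrays lie on 2 slides, as read from the array identifiers, with Young 1, Young 3 and Old 2 on slide 1 and Young 2, Old 1 and Old 3 on slide 2. With the slide as a block, 184 symbol genes were called higher and 152 lower, and 184 of the 198 calls were shared. Within slide 1 and within slide 2, limma called none at an adjusted p under 0.05, while 4900 and 2721 of all genes had an unadjusted p under 0.05.

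**Figure D1:**
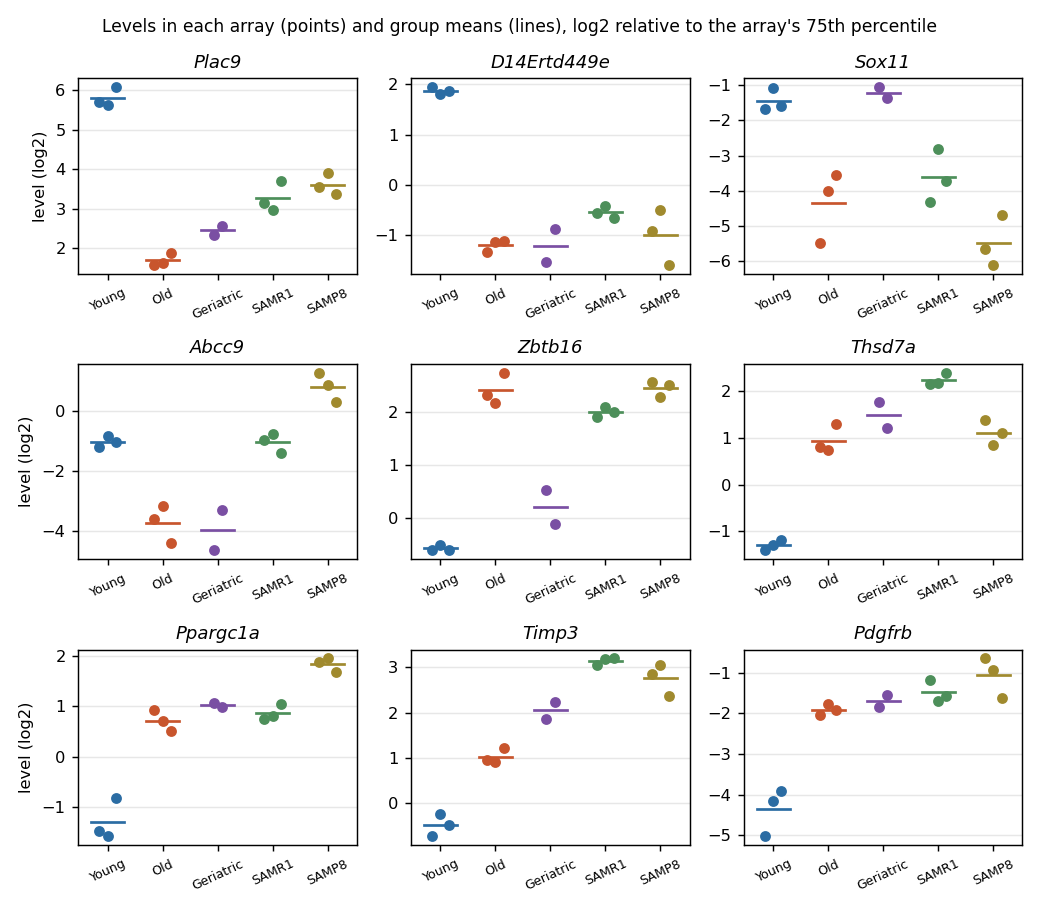
Levels of 9 genes on each of the 14 arrays (points) with group means (lines), as log2 signal relative to the array's 75th percentile, each panel on its own axis. Plac9 and D14Ertd449e are highest on the 3 Young arrays, and Zbtb16, Thsd7a, Ppargc1a, Timp3 and Pdgfrb are lowest on the Young arrays.

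Plac9, which encodes a small secreted protein first found in placenta, showed the largest fall. Its level was 5.69, 5.64 and 6.07 on the Young arrays and 1.58, 1.62 and 1.88 on the Old arrays. The 2 groups were far apart, and Plac9 was 17.2-fold lower in Old cells, a change of −4.11 ± 0.24 (SE) on the log2 scale with 3 arrays per group (limma adjusted p = 1.88e-05). The change was −4.02 with the slide as a block, −4.26 within slide 1 and −3.91 within slide 2. D14Ertd449e, now named Tmem254a, a transmembrane protein gene beside it, read 1.94, 1.80 and 1.86 in Young and −1.32, −1.13 and −1.12 in Old samples (−3.06 ± 0.27, adjusted p = 4.88e-04). Its second probe gave −3.98 ± 0.60. Both genes kept the call without each of the 6 arrays in turn, and both were also called from the 6 arrays alone (adjusted p = 0.0142 and 0.0166).

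These genes lie within a stretch of about 240.8 kb on chromosome 14 in which other probes fell as well. Tested probe by probe and adjusted over all probes, the transcript ENSMUST00000100820, 1.3 kb from the Plac9 probe, fell by 3.99 ± 0.80 (adjusted p = 0.0404). At the other end, ENSMUST00000112340 fell by 2.57 ± 0.53 (adjusted p = 0.0452) and Gm10394, now Duxbl2, fell by 3.08 ± 0.62 (adjusted p = 0.0417). Duxbl, now Duxbl1, a double homeobox gene between them, read 0.24, 1.53 and 0.85 in Young and −1.42, −2.62 and −2.34 in Old samples without passing the test (−3.00 ± 0.75, adjusted p = 0.0823). The groups did not overlap at any of these probes, and ENSMUST00000100820 was above background on 1 Old array. Duxbl transcription factors are known to act in myogenic precursors.

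The 4 probes are shown by their first 30 of 60 bases, because the group of falls rests on them. Capitals would mark runs of at least 8 bases shared with another of the 4 probes, and there are none: the longest shared runs have 5 to 7 bases. Their places are in mouse build mm9.
Plac9, chr14:26708383-26708442, minus strand: gaactggcttcaaaccttcccacagggccc
D14Ertd449e, chr14:26744273-26744332, minus strand: ggtgtagcctctctctccatcctgattgct
Duxbl, chr14:26808517-26808576, plus strand: tgatcaaaatcccaataaaggtcacttatc
Gm10394, chr14:26949189-26949248, plus strand: tctgtgacaatgggctaaaacattctgaca

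Genes flanking the stretch did not pass the test. Anxa11, which ends next to Plac9, gave −0.49 ± 0.18 and −0.24 ± 0.23 with its 2 probes, Ppif gave −0.44 ± 0.25 and Zmiz1 −0.14 ± 0.25. Slmap, on the far side, gave −0.45 ± 0.26 and −0.31 ± 0.31. Inside the stretch, the probes of intergenic intervals between Duxbl and Gm10394 gave changes between −0.42 and 0.29. The calls thus covered Plac9, D14Ertd449e, Gm10394 and both Ensembl transcripts, and none of the flanking genes or intergenic probes given here. In the Geriatric, SAMR1 and SAMP8 samples, D14Ertd449e had mean levels of −1.21, −0.54 and −1.0 and Plac9 of 2.45, 3.27 and 3.61. For both genes the Young arrays were the highest of the 14.

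**Figure D2:**
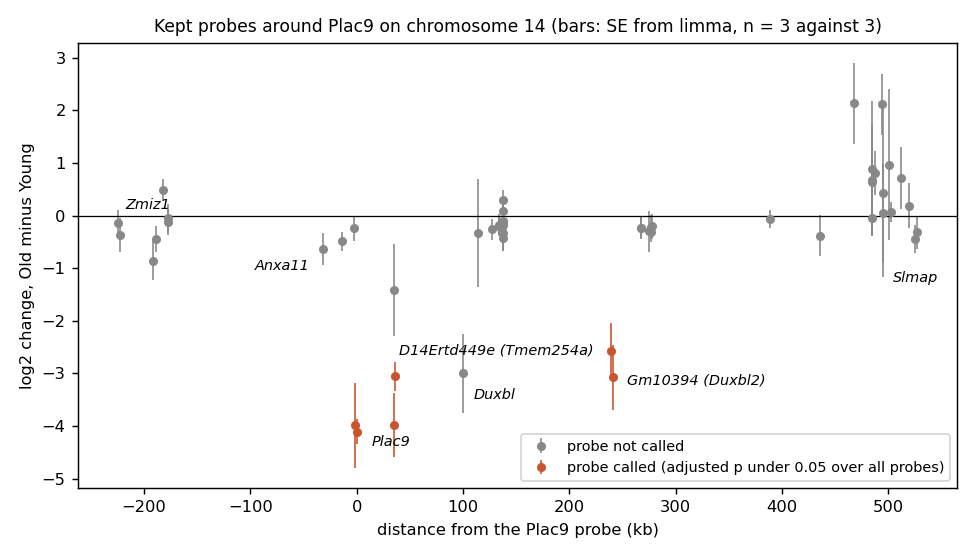
Log2 change, Old minus Young, of each of the 55 kept probes around Plac9 against the distance from the Plac9 probe in kb. Points are single probes with the SE from limma as bars. The called probes lie near the 2 ends of the stretch, between −2.57 and −4.11, and Anxa11, Ppif, Zmiz1 and Slmap lie between −0.49 and −0.14.

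RefSeq lists near-identical copies of these genes, so a probe may read several of them. In the windows around gene starts, 250 bases before to 50 after in RefSeq's GRCm38.p6, Plac9a shared a run of 222 bases with Plac9b and with Gm9780, and Tmem254a shared all 300 bases with Tmem254c. Values for a single copy are therefore uncertain. The 250 bases before the start of Plac9a and before the more upstream of 2 listed starts of Tmem254a are shown because the 2 genes fell together, with CG dinucleotides in capitals.
Plac9a, GRCm38.p6 chr14:25902894-25903143, minus strand: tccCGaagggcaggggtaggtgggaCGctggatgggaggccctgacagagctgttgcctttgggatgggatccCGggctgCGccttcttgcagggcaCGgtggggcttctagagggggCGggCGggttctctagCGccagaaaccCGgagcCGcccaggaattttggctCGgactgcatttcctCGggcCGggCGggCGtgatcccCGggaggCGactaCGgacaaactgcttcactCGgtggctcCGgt
Tmem254a, GRCm38.p6 chr14:25927673-25927922, minus strand: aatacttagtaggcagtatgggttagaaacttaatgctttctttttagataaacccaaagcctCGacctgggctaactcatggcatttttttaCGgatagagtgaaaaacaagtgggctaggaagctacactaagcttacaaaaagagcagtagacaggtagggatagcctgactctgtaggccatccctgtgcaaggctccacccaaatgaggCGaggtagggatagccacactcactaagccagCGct

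The Plac9a window holds 20 CG dinucleotides, a count that 17.9% of the 32851 windows in the table reach. The Tmem254a window holds 4, which 62.2% reach, so the 2 windows are unlike in CG content. The motif CG reads the same on both strands.

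Several transcription factors and signalling genes were lower in Old cells. Sox11, a transcription factor of embryonic neural and mesenchymal progenitors, read −1.69, −1.09 and −1.60 in Young and −5.48, −4.01 and −3.55 in Old samples (−2.89 ± 0.53, adjusted p = 0.0262, and −4.03 ± 0.58 with a second probe). It was the single called member of 17 Sox genes, against 1.26% of all symbol genes called. It stayed called without Old 3 but not without any other of the 6 arrays (highest adjusted p = 0.0901). Tet1, an enzyme that oxidises methylcytosine, changed by −1.07 ± 0.18 (adjusted p = 0.0197), and Tead2, a DNA-binding partner of Yap, by −1.15 ± 0.24 (adjusted p = 0.0432). Other Tet1 probes gave −0.41 ± 0.23 and −1.01 ± 0.29, neither past the threshold over all probes. Zfp82 and its neighbour Zfp566, which encode zinc finger proteins, changed by −1.99 ± 0.31 and −1.62 ± 0.29. A second Zfp82 probe gave −1.06 ± 0.41 and did not pass. Nes, the intermediate filament nestin used as a reporter of quiescent satellite cells, read −0.87, −0.87 and −1.29 in Young and −2.67, −3.19 and −1.83 in Old samples (−1.56 ± 0.32, adjusted p = 0.0407). In each of these genes, as in every called fall, all 3 Old arrays lay below all 3 Young arrays. Zfp82 lost its call without Old 1 alone (adjusted p = 0.0622). Tet1 and Zfp566 were called in 2 of the 6 fits that leave out 1 array, and Tead2 and Nes in 1, with highest adjusted p of 0.0623, 0.0961, 0.141 and 0.146. Tet1, Tead2 and Nes were chosen after their values were seen.

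Of 17 measured MAP kinase phosphatase, Sprouty and Spred genes, 2 fell and none rose, against 0.369% of all symbol genes called lower. These genes encode inhibitors of MAP kinase signalling, in part of the ERK pathway downstream of growth factor receptors. Dusp6, which dephosphorylates ERK, read 1.73, 1.81 and 1.24 in Young and 0.46, 0.41 and 0.37 in Old samples (−1.18 ± 0.22, adjusted p = 0.0269). Spred2, which restrains Raf activation, read −0.68, −0.64 and −0.71 in Young and −2.01, −1.56 and −1.51 in Old samples (−1.02 ± 0.20, adjusted p = 0.0344). The Old arrays were tightly grouped and low for Dusp6. Among members chosen after their values were seen, Spry1, known to return satellite cells to quiescence, differed by −0.68, Spred1 by −0.94 and Dusp5 by 0.77, none of which passed the test. The list's median change was −0.09, against −0.05 for all symbol genes. Dusp6 lost its call without Young 1, Young 2, Old 1 or Old 2 (highest adjusted p = 0.104), and Spred2 stayed called without Old 3 alone (highest 0.133).

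Among the firmer rises were the receptor genes Pdgfrb and Osmr. Pdgfrb, the receptor of platelet-derived growth factor B, read −5.01, −4.15 and −3.90 in Young and −2.03, −1.78 and −1.91 in Old samples, 5.45-fold higher (adjusted p = 0.00609). Among 49 receptor tyrosine kinases it was the single called gene, against 1.26% of all symbol genes called, and the list's median was 0.07. Osmr, the receptor subunit for oncostatin M, read −1.60, −0.53 and −1.29 in Young and 0.95, 1.70 and 1.08 in Old samples (2.38 ± 0.35, adjusted p = 0.0105). Cish, a suppressor of cytokine signalling induced through STAT5, changed by 2.09 ± 0.40 (adjusted p = 0.0304). Pdgfrb and Osmr kept their calls without each of the 6 arrays, and Cish lost its call when any single Old array was left out (highest adjusted p = 0.0836). With the authors' deposited log2 values Pdgfrb changed by 1.37, still called. Osmr and Cish were chosen after their values were seen.

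Pdgfrb and Abcc9 also belong to the smooth muscle and pericyte markers, and they moved in opposite directions. Abcc9, the sulfonylurea receptor subunit of ATP-sensitive potassium channels, read −1.21, −0.83 and −1.05 in Young and −3.61, −3.16 and −4.41 in Old samples (−2.70 ± 0.41, adjusted p = 0.0123). None of the other 14 measured markers of those cells passed the test, and Kcnj8, the channel pore that pairs with Abcc9 (chosen after its value was seen), differed by 0.22. The 16 markers summed, on the linear scale, to 344.9 to 363.5 per Young array and 314.7 to 347.6 per Old array, with none at background throughout. Without the brightest, Mcam, they summed to 151.8 to 177.2 per Young and 129.8 to 151.7 per Old array, so each Old array was then below each Young array. Abcc9 was the single called gene among 52 potassium channel genes, against 1.26% of all symbol genes called. Of the 6 arrays, its call was lost without Old 1 alone (adjusted p = 0.0532). The part of these cells in the changes was not tested.

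Zbtb16, a zinc finger transcription factor known as PLZF that maintains germline stem cells and shapes innate lymphocytes, showed the rise with the lowest adjusted p among genes measured in both groups. It read −0.61, −0.50 and −0.59 in Young and 2.31, 2.17 and 2.74 in Old samples, a 7.85-fold difference (2.97 ± 0.21, adjusted p = 9.64e-05). Each group was tight and the gap between them wide. The change was 2.77 within slide 1 and 3.03 within slide 2, and the gene was called from the 6 arrays alone (adjusted p = 0.0217). In Geriatric samples its mean level was 0.21, nearer to Young, and in SAMR1 and SAMP8 samples 2.00 and 2.45.

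Thsd7a, chosen after its values were seen, encodes a membrane protein with thrombospondin repeats and read −1.41, −1.30 and −1.18 in Young and 0.80, 0.73 and 1.29 in Old samples (2.24 ± 0.22, adjusted p = 0.00115). Its other 3 probes gave 0.34, 0.85 and 1.30, none past the threshold over all probes, so they shared the direction and not the size. Ppargc1a, the coactivator PGC-1 alpha that drives mitochondrial biogenesis, read −1.48, −1.58 and −0.83 in Young and 0.92, 0.71 and 0.50 in Old samples (2.00 ± 0.22, adjusted p = 0.00203). A second Ppargc1a probe gave −0.01 ± 0.71, at a low mean level of −5.96 in both Young and Old samples. Zbtb16, Thsd7a and Ppargc1a kept their calls without each of the 6 arrays in turn. The first 30 of the 60 bases of the probes behind these 3 rises are given because other probes of Thsd7a and Ppargc1a gave smaller values.
Zbtb16, mm9 chr9:48462419-48462478, minus strand: tatttcttccgttctacaggaccttgctct
Thsd7a, mm9 chr6:12267349-12267408, minus strand: aaacctttaaccttagcatacgatggagac
Ppargc1a, mm9 chr5:51848928-51848987, minus strand: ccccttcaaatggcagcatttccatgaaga

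Of 77 oxidative phosphorylation genes 1 rose, against 0.891% of all symbol genes called higher, and the list's median was −0.16. It was Cox6b1, a subunit of cytochrome oxidase (0.97 ± 0.20, adjusted p = 0.0417). Cox8b, a muscle form of another subunit that was chosen after its values were seen, read −1.83, −1.89 and −1.82 in Young and 0.34, −0.09 and −0.48 in Old samples (1.77 ± 0.31, adjusted p = 0.0229). Of 54 glycolysis and fatty acid oxidation genes none but Ppargc1a was called, against 1.26% of all symbol genes. Of that list 25.9% lay without overlap, 7 higher and 7 lower, against 21.9% of all symbol genes. Fasn, the fatty acid synthase, was lower by contrast (−1.12 ± 0.24, adjusted p = 0.0432) and was also chosen after its values were seen. Cox6b1 and Fasn lost their calls whichever of the 6 arrays was left out (highest adjusted p = 0.127 for each), and Cox8b was called without Young 3 or Old 3 alone.

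Matrix genes changed in both directions and singly. Fn1, which encodes the niche protein fibronectin, read −0.78, −0.31 and −0.52 in Young and −2.54, −2.21 and −1.99 in Old samples (adjusted p = 0.0219, called without Young 3 or Old 3 and otherwise up to 0.0971). Col4a5, a basement membrane collagen chain, was not above background on any Young array and was at least 1.54-fold higher in Old samples (adjusted p = 0.0304). These 2 were the called genes among 56 of the matrix list, against 1.26% of all symbol genes called, and the list's median was −0.03. Timp3, an inhibitor of matrix metalloproteases and of Adam17, read −0.73, −0.25 and −0.49 in Young and 0.95, 0.90 and 1.21 in Old samples (1.51 ± 0.22, adjusted p = 0.0103). Timp3 was the single call among 44 proteases and inhibitors, against the same 1.26%, and kept it without each of the 6 arrays. Its mean level was 2.05 in Geriatric, 3.15 in SAMR1 and 2.76 in SAMP8 samples. Col4a5 was called without Old 2 alone (highest adjusted p = 0.128) and not with the authors' deposited values (change 0.43, adjusted p = 0.28).

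Ccl11, the chemokine eotaxin that attracts eosinophils and rises in blood with age, read −5.90, −3.69 and −4.83 in Young and −0.88, −2.06 and −1.18 in Old samples (3.43 ± 0.51, adjusted p = 0.0121), with 2 Young arrays above background. Among 40 measured senescence-associated secretory factors 3 rose, Ccl11, Il18 and Il15, and none fell, against 0.891% of all symbol genes called higher, and the list's median was 0.21. Il18 changed by 1.31 ± 0.27 (adjusted p = 0.0416). Il15 was not above background on any Young array and on 1 Old array, and its bound was at least 1.07-fold. Il6 and Cxcl1, chosen after their values were seen, differed by 1.68 and −0.99 without passing the test. With the authors' deposited values, Il18 (0.74, adjusted p = 0.0949) and Il15 (0.26, adjusted p = 0.428) were no longer called. None of 15 markers of fibro-adipogenic progenitors, the mesenchymal cells of muscle, was called. They summed to 68.96 to 72.56 per Young and 59.3 to 85.84 per Old array, and without the brightest, Col3a1, to 31.29 to 33.34 and 36.72 to 47.54, higher on each Old array, and their part in these rises was not tested. Ccl11 lost its call without Old 1 alone (adjusted p = 0.0609). Il15 kept its call without Old 3 alone, and Il18 lost it whichever of the 6 arrays was left out (highest adjusted p = 0.0882 and 0.151).

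Several other genes of secreted proteins were called higher, singled out here without a list of their kind. Serpina3n, a secreted protease inhibitor, read −2.58, −3.99 and −3.82 in Young and −0.99, −0.20 and −0.27 in Old samples (2.98 ± 0.49, adjusted p = 0.0172). Apoc1 and Apoe, neighbouring apolipoprotein genes on chromosome 7, changed by 2.45 ± 0.40 and 0.83 ± 0.16 (adjusted p = 0.0173 and 0.0344). Apoe was among the brightest genes called, at 6.11, 6.55 and 6.35 in Young and 7.11, 7.16 and 7.22 in Old samples. C1rb, a complement protease, changed by 1.10 ± 0.16 and Cfhr2, a complement factor H relative, by 1.33 ± 0.26. Kng1, the precursor of bradykinin, changed by 2.76 ± 0.44. All these genes, like every called rise, were higher on each Old array than on each Young array. Apoc1 kept its call without each of the 6 arrays, Serpina3n lost it without Young 2 or Old 2 (highest adjusted p = 0.0509) and C1rb without Old 1 (0.0529). Kng1 lost it without Young 1 or Old 1 (highest 0.0673). Apoe and Cfhr2 were called in 1 and 2 of the 6 fits that leave out 1 array (highest 0.128 and 0.127).

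Ccl19, a ligand of the lymphocyte homing receptor Ccr7, read 3.54, 3.70 and 3.95 in Young and 4.68, 4.95 and 5.19 in Old samples (1.21 ± 0.20, adjusted p = 0.0183), and its 3 probes gave 1.06, 1.21 and 1.33. Anxa1, a protein that dampens neutrophil recruitment, changed by 1.27 ± 0.22 (adjusted p = 0.0215). Casp4, which senses lipopolysaccharide in the cytosol, changed by 1.97 ± 0.41 (adjusted p = 0.0422), and Ptx3, a soluble pattern recognition protein, by 2.41 ± 0.47 (adjusted p = 0.0333). Ptx3 read −3.51, −4.43 and −2.64 in Young and −1.04, −0.36 and −1.94 in Old samples, so the groups lay close at their nearest arrays. Ccl19 lost its call without Young 1 alone (adjusted p = 0.0786). Anxa1, Casp4 and Ptx3 were called in 2, 1 and 2 of the 6 fits that leave out 1 array (highest adjusted p = 0.0786, 0.141 and 0.125). Apoe, C1rb, Cfhr2, Ccl19, Anxa1, Casp4 and Ptx3 were chosen after their values were seen. None of the 16 myeloid markers was called, and 13 of 16 changes were above 0, against 45.2% of all symbol genes (not matched for level). Their sum without Itgam ran from 9.85 to 14.2 on the Young and from 12.6 to 17.7 on the Old arrays, and their part in these rises was not tested.

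Of 53 measured interferon response and antigen presentation genes none passed the test. Their median was 0.31, with 39 of 53 above 0 against 45.2% of all symbol genes, a share not matched for level. Of the list, 11 lay higher in Old without overlap and 2 lower. These make 24.5% of the list without overlap, near the 21.9% of all symbol genes. B2m, the light chain of class I molecules, read 1.96, 2.30 and 2.44 in Young and 2.91, 2.91 and 3.50 in Old samples (0.88 ± 0.21, adjusted p = 0.0648). Isg20, an exonuclease induced by interferon, differed by 1.22 ± 0.33 (adjusted p = 0.0946). None of 45 growth factor genes was called either, with a median of 0.28. Fgf1 differed by 1.32 ± 0.33 (adjusted p = 0.0786).

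None of 35 heat shock genes and cochaperones and none of 35 immediate early genes in the lists was called, with medians of −0.33 and −0.26. In each list 13 genes were lower in Old without overlap, and 0 and 2 were higher. This makes 37.1% and 42.9% without overlap, against 21.9% of all symbol genes, a share not matched for level. Hspa1a, the inducible Hsp70, read 4.33, 4.44 and 4.08 in Young and 3.29, 2.98 and 3.55 in Old samples (−1.01 ± 0.24, adjusted p = 0.0648). Fos, a subunit of the AP-1 transcription factor, read 4.35, 4.56 and 4.25 in Young and 3.72, 3.37 and 3.80 in Old samples (−0.76 ± 0.19, adjusted p = 0.0779). Dnaja1, an Hsp70 cochaperone, differed by −0.93 ± 0.23 and Btg2, an antiproliferative early gene, by −0.62 ± 0.16. Dnaja4, a related cochaperone outside the list, did pass, at −0.39, 0.14 and 0.08 in Young and −1.93, −1.84 and −1.52 in Old samples (adjusted p = 0.0119, and 0.0597 without Old 1). Fosl1 and Ier5, chosen after their values were seen, differed by 1.89 and 1.34 in the other direction without passing.

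Of 39 genes of satellite cell identity and quiescence 1 passed the test, against 1.26% of all symbol genes. Foxo3, a transcription factor that supports quiescence, read 3.14, 3.61 and 3.42 in Young and 4.06, 4.28 and 4.55 in Old samples (0.91 ± 0.20, adjusted p = 0.0493). A second Foxo3 probe gave −0.87 ± 0.35, so its probes disagree, and the call was lost whichever of the 6 arrays was left out (highest adjusted p = 0.178). Of the 39 genes 31 had changes below 0 and the median was −0.26, while 45.2% of all symbol genes had changes above 0. That share is not matched for level. Among 3 equal groups of symbol genes by mean level, the median change was −0.15 in the brightest, −0.09 in the middle and 0.22 in the dimmest. Whether the list differs from genes of like level was not tested. In the list, 8 lay lower in Old without overlap and 1 higher, 23.1% of it against 21.9% of all symbol genes. Myf5, the myogenic factor of committed satellite cells, differed by −1.05 ± 0.39 (adjusted p = 0.198), and Myod1 by −0.04 ± 0.17. Of 32 Notch pathway genes 1 rose, against 0.891% of all symbol genes called higher, and the median was −0.20. It was the coactivator Maml2 (0.82 ± 0.18, adjusted p = 0.0477, and lost whichever of the 6 arrays was left out, up to 0.161). Of 50 Wnt genes 1 fell, the secreted inhibitor Dkk2, against 0.369% of all symbol genes called lower. Dkk2 was above background on all 3 Young arrays and on no Old array, and was at least 1.86-fold lower in Old samples (adjusted p = 0.007). Dkk2 kept its call without each of the 6 arrays and lost it with the authors' deposited values (adjusted p = 0.0682).

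Cell cycle inhibitors, markers of the senescence that the series' title names, did not pass the test between Old and Young. Cdkn2a, the gene of p16INK4a and p19ARF, read −4.17, −3.95 and −4.19 in Young and −3.48, −3.30 and −3.42 in Old samples (0.70 ± 0.22, adjusted p = 0.135). The groups did not overlap, at levels far below the 75th percentile. Cdkn1a, which encodes p21, read 2.02, 3.58 and 2.85 in Young and 3.34, 2.78 and 3.86 in Old samples and overlapped, and Cdkn2b differed by 0.03 ± 0.28. None of 35 genes of that list and none of 47 cell cycle genes was called. Among 30 Polycomb genes 1 fell, against 0.369% of all symbol genes called lower. It was Pcgf6, a subunit of a variant repressive complex (−1.19 ± 0.26, adjusted p = 0.048, called without Old 3 alone and otherwise up to 0.173). Changes were below 0 in 25 of 30, while 45.2% of all symbol genes, not matched for level, had changes above 0. Hist1h2bg and Hist1h1c, linked histone genes on chromosome 13, changed by −2.02 ± 0.38 and −1.14 ± 0.22. They were the called genes among 40 replication-dependent histones, against 0.369% of all symbol genes called lower. Hist1h2bg was called without Young 3 or Old 3 and Hist1h1c without Old 3 alone (highest adjusted p = 0.125 and 0.138).

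**Figure D3:**
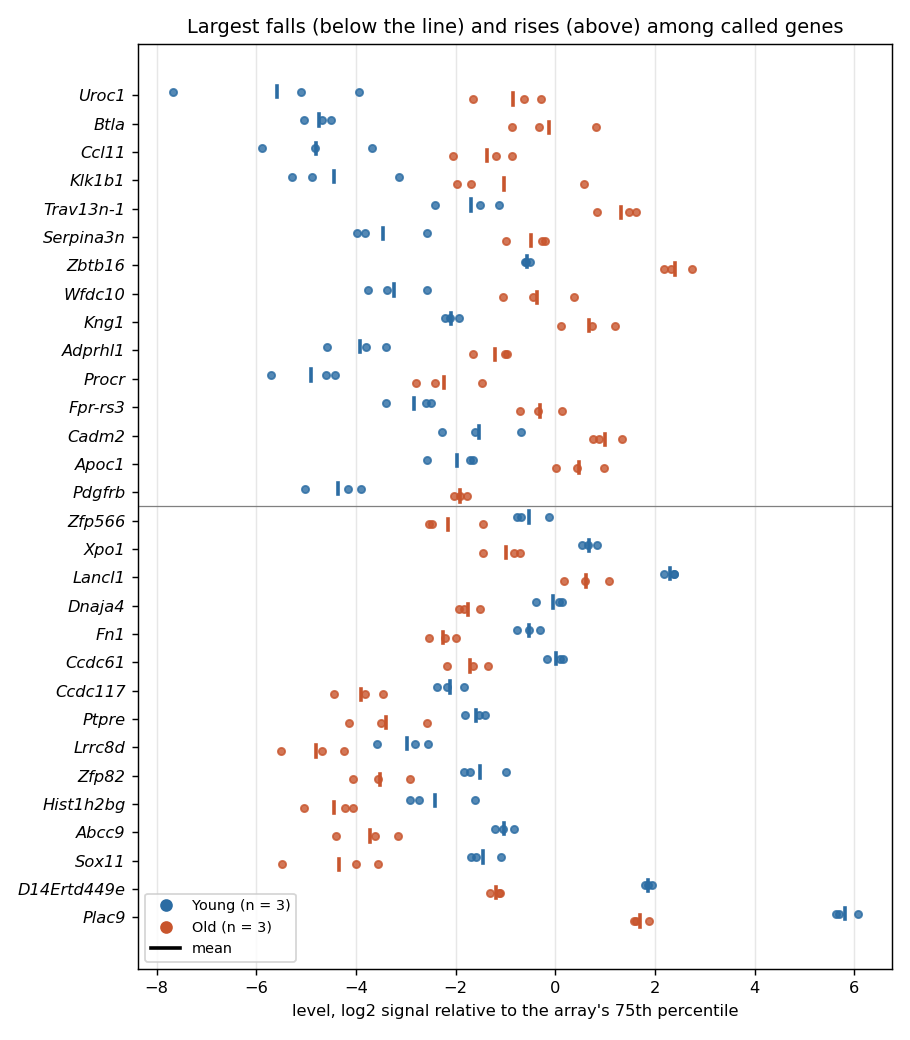
Levels on the 3 Young (blue) and 3 Old (orange) arrays of the 15 genes with the largest rises and the 15 with the largest falls among called symbol genes measured in both groups, as log2 signal relative to the array's 75th percentile. Points are arrays and bars group means. The rises sit mostly at low levels in Young cells, and Zbtb16 and Plac9 show tight groups.

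Other large falls concerned genes of general cell function. Lancl1, a glutathione-binding protein, read 2.18, 2.37 and 2.37 in Young and 0.60, 0.18 and 1.07 in Old samples (−1.69 ± 0.25, adjusted p = 0.0103). A second, dimmer Lancl1 probe gave −0.30 ± 0.67 and did not pass over all probes. Xpo1, the main nuclear export receptor, changed by −1.67 ± 0.35 (adjusted p = 0.0432), and Lrrc8d, a subunit of volume-regulated anion channels, by −1.83 ± 0.36. Ptpre, a receptor-type tyrosine phosphatase, changed by −1.81 ± 0.38, and Ccdc117 and Ccdc61 by −1.78 ± 0.29 and −1.74 ± 0.35. As in every called gene, the groups did not overlap in any of them. Lancl1 and Ccdc117 lost their calls without Old 1 alone (adjusted p = 0.0513 and 0.0631). Lrrc8d, Xpo1, Ptpre and Ccdc61 were called in 2, 1, 1 and 0 of the 6 fits that leave out 1 array (highest adjusted p = 0.126, 0.15, 0.108 and 0.136).

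Among the remaining large rises, several were genes of other tissues. Cadm2, a synaptic adhesion molecule, read −2.27, −0.70 and −1.61 in Young and 0.87, 1.33 and 0.76 in Old samples (2.51 ± 0.39, adjusted p = 0.0135). Procr, the endothelial receptor of protein C, changed by 2.69 ± 0.50, Adprhl1, a heart-enriched pseudoenzyme, by 2.72 ± 0.41, and Wfdc10 by 2.86 ± 0.53. Klk1b1, a kallikrein, changed by 3.40 ± 0.70 and Uroc1, urocanate hydratase of the liver, by 4.72 ± 0.80. Btla, an inhibitory receptor of lymphocytes, had the largest rise among called symbol genes above background on all 6 arrays, at −4.67, −4.50 and −5.04 in Young and −0.88, 0.81 and −0.32 in Old samples (4.61 ± 0.83, adjusted p = 0.0246). Btla and Klra8, a natural killer receptor that was at least 4.90-fold higher, were the 2 called genes among 30 lymphocyte receptors. The list's median was 0.06, and 0.891% of all symbol genes were called higher. None of 12 lymphoid markers was called, and these summed to 4.58 to 6.61 per Young array and 4.83 to 8.18 per Old array on the linear scale. Btla was also called from the 6 arrays alone (adjusted p = 0.0332), while in the fit with the other groups it stayed called without Old 3 alone (highest adjusted p = 0.0838). Klra8, Wfdc10, Procr, Klk1b1 and Uroc1 were called in 2, 2, 3, 3 and 3 of the 6 fits that leave out 1 array, and Cadm2 and Adprhl1 lost their calls without Old 1 alone (adjusted p = 0.0574 and 0.0609).

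Myo1d, an unconventional myosin, and Synpo2, an actin-bundling protein of muscle, were higher by 1.93 ± 0.26 and 1.71 ± 0.24 (adjusted p = 0.007 and 0.0086). Myo1d read −0.26, −0.24 and −0.23 in Young and 1.32, 2.07 and 1.65 in Old samples, and a second probe gave 2.22 ± 0.38. Other Synpo2 probes gave 0.44 ± 0.27 and 0.79 ± 0.39, neither past the threshold over all probes. Both genes kept their calls without each of the 6 arrays. Gstm2, a glutathione transferase, read 1.78, 2.26 and 1.87 in Young and 3.09, 3.05 and 3.1 in Old samples (1.12 ± 0.22, adjusted p = 0.0351, called without Young 2 alone and otherwise up to 0.134). It was the single call among 54 glutathione and antioxidant enzymes, against 1.26% of all symbol genes called. Of these enzymes 13 were higher in Old without overlap and 2 lower. These make 27.8% without overlap, against 21.9% of all symbol genes. Nqo1 and Hmox1, targets of the oxidative stress factor Nrf2, differed by 1.49 and 1.21 without passing. Myo1d, Synpo2, Nqo1 and Hmox1 were chosen after their values were seen.

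**Figure D4:**
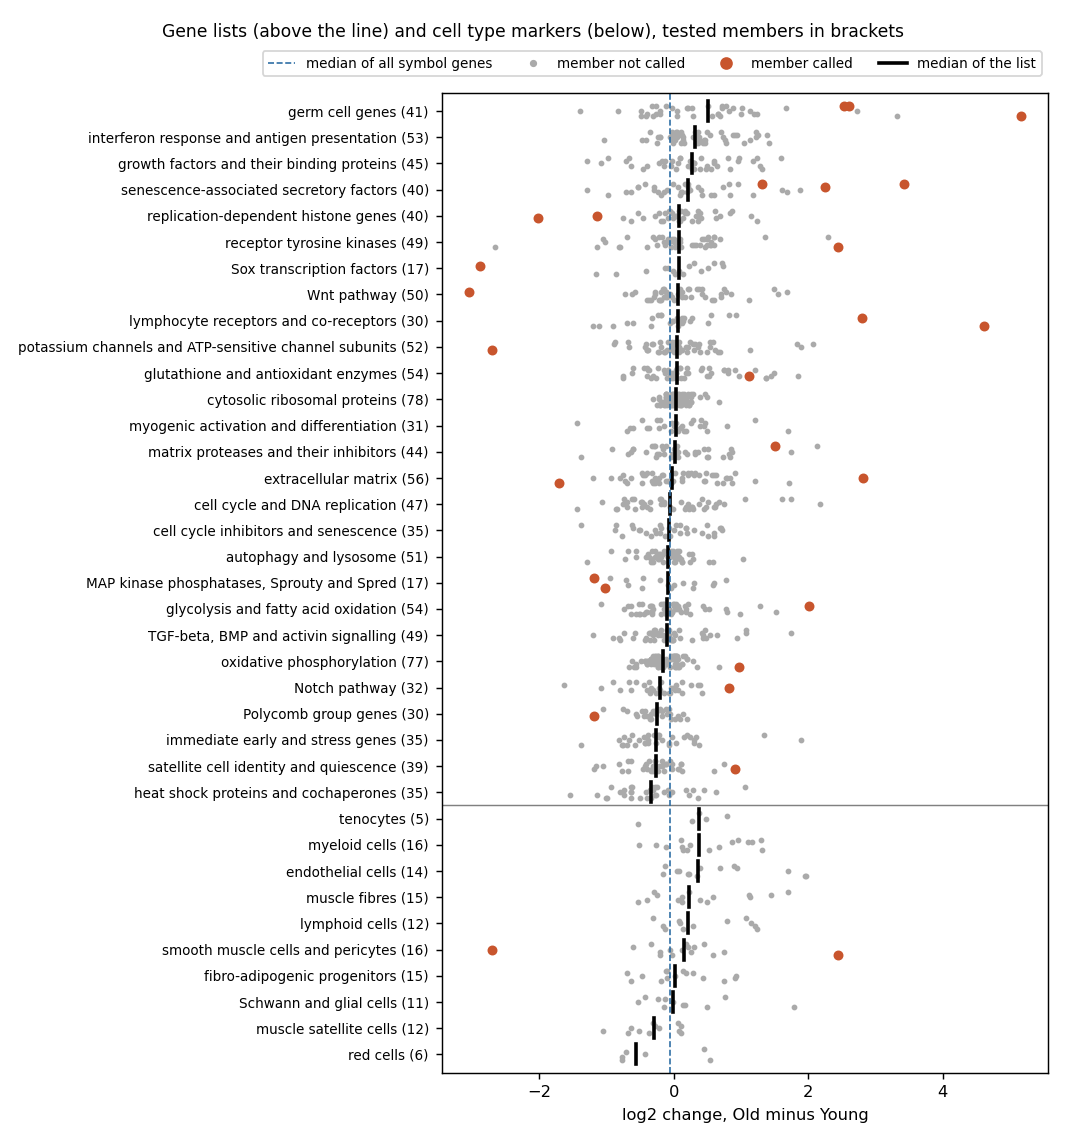
Log2 change, Old minus Young, of every tested member of the 27 gene lists (above the line) and 10 marker lists (below), with the median of each list as a black bar, called members in orange and the median of all symbol genes as a dashed line. Most lists hold 0 or 1 called member, and list medians run from −0.57 for red cells to 0.51 for germ cell genes, whose 3 called members were not above background on any Young array.

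In 51 of the 140 genes called higher, no Young array was above background, and in 13 only 1 was, while 76 were measured on at least 2 arrays of both groups. For such genes the change is a bound against the detection floor of the dim arrays. Among the largest bounds were at least 7.85-fold for Prss21, a testis serine protease, at least 6.92-fold for Tlr12, a receptor of profilin, and at least 6.82-fold for Cdhr1, a photoreceptor cadherin. All 3 Old arrays were above background for these 3 genes, which adds no support where the filter passed a gene through them. All 3 genes kept their calls without each of the 6 arrays, with Young signals not above background. Lypd4, Sprr2e and Rpe65, genes of testis, epidermis and retinal pigment epithelium, had bounds of at least 4.58-, 4.62- and 4.31-fold. Among 41 germ cell genes 3 rose, Prss21, Tex11 and Figla, against 0.891% of all symbol genes called higher. None of these 3 was above background on any Young array. Prss21 passed the filter through the Old arrays alone, so the filter favoured a rise. Prss21 was above background on no Geriatric, SAMR1 or SAMP8 array (mean levels −7.82, −8.05 and −7.78). With the authors' deposited values, which lift low signals by an offset, Tex11 and Figla were no longer called (adjusted p = 0.227 and 0.209) and Prss21 changed by 1.74. Among the 5 bounded falls were Dkk2, Anks4b (at least 1.70-fold), Sema4d (at least 1.56-fold) and Ttf1 (at least 1.14-fold), of which Dkk2 stayed called without each of the 6 arrays. Without Old 1 the adjusted p was 0.108 for Anks4b, 0.106 for Sema4d, 0.145 for Ttf1, 0.112 for Sprr2e and 0.162 for Rpe65.

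The rises were concentrated among dim genes. When the 15717 symbol genes were split into 3 equal groups by their mean level, the dimmest held 85 rises and 17 falls, the middle 32 and 20, and the brightest 23 and 21. The median change was 0.22 in the dimmest group, −0.09 in the middle and −0.15 in the brightest. The medians of the gene lists, and their shares above or below 0, were not set against genes of like level. The median Young level was −4.77 for the genes called higher and −0.02 for those called lower, against −0.92 for all symbol genes. Old 1 had the largest share of probes above background, 88.8%, and its part in the rises of dim genes was not tested beyond the counts without it. All 33 called chemosensory receptors were higher, 3.27% of 1008, and 15 of them were not above background on any Young array.

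**Figure D5:**
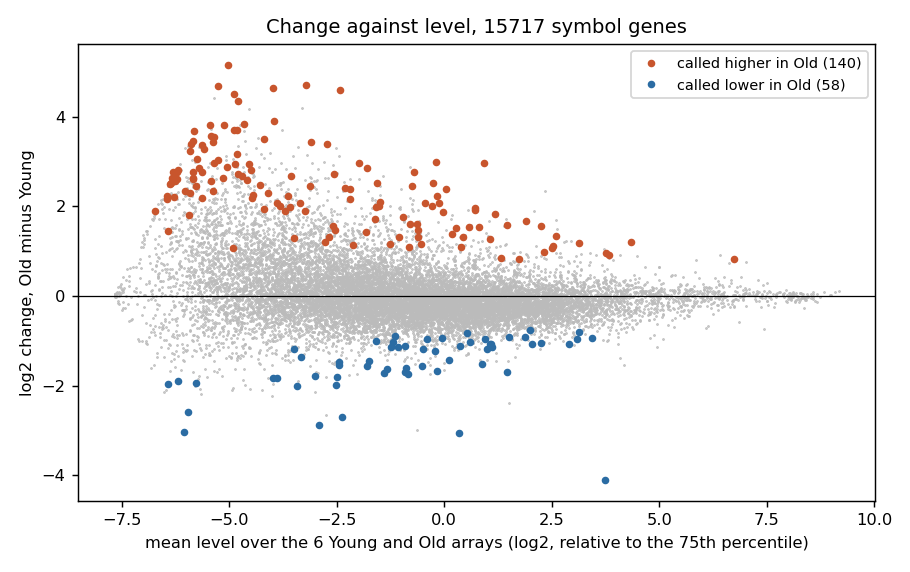
Log2 change, Old minus Young, of each of 15717 symbol genes (grey points) against its mean level over the 6 arrays, with the 140 genes called higher in orange and the 58 called lower in blue. The spread widens toward low levels, where most of the genes called higher lie.

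Some called genes lay beside each other. Of 470 called genes with a probe position, 128 fell into 52 groups with gaps of at most 200000 bases, and in 48 of these groups all members moved the same way, where 83.3% of all called genes were higher. How many groups the density of genes alone would give was not tested. The largest group held 8 genes over 630.1 kb of chromosome 16 among keratin-associated protein genes, structural proteins of hair, and all 8 were higher. In that span 32 genes were tested, and 1.2% of all genes were called higher. The span begins and ends at a called gene, which raises its share of calls. Krtap16-10, now Krtap16-3, read 0.28, 0.88 and 0.86 in Young and 2.69, 2.17 and 1.89 in Old samples (1.58 ± 0.25, adjusted p = 0.0155). Krtap16-1 (now Krtap19-2), Krtap6-1 and Krtap16-7 (now Krtap21-1) changed by 1.67 ± 0.31, 1.56 ± 0.32 and 1.84 ± 0.29. As in every called rise, the Old arrays were above the Young ones in all 4, which were chosen after their values were seen. Krtap16-10 and Krtap16-7 lost their calls without Young 1 or Old 1 (highest adjusted p = 0.0609 and 0.0623), and Krtap16-1 and Krtap6-1 were called in 2 and 1 of the 6 fits that leave out 1 array.

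The probes of these 4 genes are shown by their first 30 of 60 bases, since their sequences overlap. Runs of at least 8 bases that also occur in another of the 4 probes are in capitals.
Krtap16-1, mm9 chr16:88874321-88874380, minus strand: ttcGGATATGGCTCTGGCTATGGAGGCTTT
Krtap16-10, mm9 chr16:88962906-88962965, minus strand: gTGGCTCTGGaaGCTATGGATATGGCTCTG
Krtap6-1, mm9 chr16:89032140-89032199, plus strand: TATGGCTGTGGCTATGGATgtggttctggc
Krtap16-7, mm9 chr16:89403912-89403971, minus strand: ctgTGGAGGCTGTGGatacggctcaagata

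The probes of Krtap16-1 and Krtap16-10 share a run of 25 bases, and the other pairs runs of 9 to 12 bases. Whether a transcript of the family binds several of these probes was not tested, so the 4 values need not be independent. The family is known for proteins rich in glycine and tyrosine.

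A stretch of T cell receptor alpha variable segments on chromosome 14 held further groups, with 24, 9 and 38 genes tested in their spans. Each span begins and ends at a called gene, which raises its share of calls, and 1.2% of all genes were called higher. Of the genes tested in these spans, 4, 2 and 5 were called, all higher. Trav13n-1 was the single one of them with a symbol, at −2.42, −1.13 and −1.52 in Young and 1.62, 1.48 and 0.84 in Old samples (3.00 ± 0.45, adjusted p = 0.0119, and 0.0609 without Old 1). Cd3d, a chain of the T cell receptor complex, differed by 1.20 ± 0.52 (adjusted p = 0.266), at −5.12, −4.44 and −5.18 in Young and −2.78, −3.41 and −4.94 in Old samples. The segments are similar in sequence, and whether their probes share signal was not tested. Rnase10, Rnase4 and Rnase1, secreted ribonuclease genes on the same chromosome, rose together, with Rnase4 at 2.41, 2.86 and 2.36 in Young and 3.47, 4.05 and 3.63 in Old samples (1.18 ± 0.21, adjusted p = 0.0225). Ang3 and Ang4, angiogenins of the same family, changed by 1.54 ± 0.26 and 1.38 ± 0.25. The group around Apoe was mixed: Ercc2 and Clasrp fell by 1.04 and 0.97 on the log2 scale, and Apoc1 and Apoe rose. Rnase10 was called in 3, Rnase4, Rnase1, Ang3 and Ang4 in 2, and Ercc2 and Clasrp in 1 of the 6 fits that leave out 1 array. These and Cd3d were chosen after their values were seen.

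Different probes of a called gene mostly pointed the same way. Of 44 called symbol genes with several kept probes, 40 had all probes on the same side. Foxo3, Gle1, Traip and Ppargc1a were the ones with a probe on the other side. Those probes gave −0.87, 0.44, −0.01 and −0.01. The 35 symbol genes that stayed called without each of the 6 arrays in turn were 3 falls, Plac9, D14Ertd449e and Dkk2, and 32 rises. Of those rises, Zbtb16, Thsd7a, Ppargc1a, Timp3, Synpo2, Myo1d, Pdgfrb, Osmr and Apoc1 were above background on all 3 Young arrays. Most of the others, such as Try4, Defb8, Reg1 and Tlr12, were not above background on any Young array.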

How the data were processed

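RNA from sorted satellite cells was hybridised to 14 single-colour Agilent arrays, 1 per sample, 3 of them Young and 3 Old. Per the file headers, the authors' scanner files were made with Feature Extraction 10.7.3.1 and hold background-subtracted signal intensities, with probes placed on mm9. The authors' deposited log2 values, for which the sources used here name no method, differed by at most 0.000117 from normexp background correction (offset 50) followed by quantile normalization, had a median of 7.80 in every column, and served as an alternative. Here each intensity was taken to log2 and the array's 75th percentile subtracted. Control spots and outlier spots were left out, and 49916 probes passed the filter, which asked for a mark of well above background on 2 or more arrays in any group. The brightest of these probes stood for its gene, and symbols are those of the array's design. Old and Young were compared with limma 3.58.1 in R 4.3.3, in a fit over all 14 arrays with 5 group means that share a variance, two-sided, with Benjamini-Hochberg adjustment over 32862 genes and a threshold of 0.05. The script was tested on simulated data. Where no array of a group was above background, a fold is a bound, the bright group's mean against the higher of the dim arrays' detection floor and signal.

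The genes described included the 15 largest rises and falls among called genes measured in both groups with no overlap between the arrays. Next came the 8 largest bounded changes each way, called members of the lists (or the 2 of smallest p) and genes fixed by name. Others are marked as chosen after their values were seen, as were Reg1, Defb8, Try4, Gle1 and Traip. The members and lists were chosen with earlier results of these data known. Alternatives covered scaling, background correction, filters, probe summaries, blocks for slide and replicate number, and each array left out. Same-numbered Young and Old samples did not deviate together (r = −0.247, −0.213 and −0.255 across genes), so the numbers were not used as pairs. Array number limits the precision. A result on 1 gene is not reported here.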

Additional observations from a re-analysis of the deposited data

How the results depend on the processing

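The number of genes past the threshold moved widely. The 198 symbol genes called kept their direction in the alternatives that measured them, apart from 1 gene without the filter on dim probes, but since none overlaps between groups, leaving out arrays or taking slides apart could not turn it. The main fit called 393 genes higher and 79 lower, of which 140 and 58 had symbols. With the 6 arrays alone it was 41 and 2, with symbols 17 and 2. With the replicate number as a block over all 14 arrays, 215 and 22 were called, with symbols 82 and 18. With the replicate block over the 6 arrays limma called 0 and 0, while 3534 genes had an unadjusted p under 0.05, and the same-numbered samples share only a number. Within slide 1 and within slide 2, alternatives chosen after seeing the data, it also called 0 and 0, with 4900 and 2721 genes at an unadjusted p under 0.05. With probes above background on all 6 arrays, 177 genes and 65 symbol genes were called higher. More falls were called with the slide as a block (205, with symbols 152), with normexp and quantile normalization and with the authors' log2 values (195 and 133 in both), with quantile normalization (155 and 104), with median scaling (140 and 102) and with a trended, robust prior (191 and 141). Leaving out 1 of the 14 arrays gave 80 to 603 genes higher and 5 to 190 lower, with symbols 37 to 185 and 5 to 143. Among single genes described, 544 of the alternative values fell below the threshold, 30 passed it newly and 2717 stayed on their side, with none reversed. The causes were not tested. Signal was 6.1 to 6.65 times background on the 6 arrays, and dim genes have bounds only.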
